A study of Mus musculus with 2 samples.

Results

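A set of 8 genes that mark regulatory T (Treg) cells of visceral fat was followed, namely Foxp3, Ikzf2, Gata3, Pparg, Batf, Rora, Prdm1 and Klrg1, which are 8 of the 26981 genes listed in either library. They were chosen by name, as known regulators or surface markers of these cells, with earlier results of these data known. CD45+ cells had been separated from visceral adipose tissue (VAT) of 15-week-old wild type C57BL/6 mice that drank either normal water (NW) or water with antibiotics (ABX). Each condition gave 1 BD Rhapsody whole transcriptome library, with AbSeq antibody tags. The sources used here do not tie the libraries to a number of mice. After filters on depth and mitochondrial content, the NW library kept 12474 cells, at a median of 5092 UMIs (unique molecular identifiers, that is, counted mRNA molecules), and the ABX library 12724, at 3845.5. Of their cell indices, 196 occurred in both libraries. With 1 library per condition no test between NW and ABX was possible, so every interval given is a 95% interval of counting error only.

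Treg cells are CD4 T cells that restrain other immune cells, and Foxp3 is the transcription factor that defines them. In visceral fat they also carry a tissue program that depends on the nuclear receptor PPARγ and on the IL-33 receptor ST2, the product of Il1rl1. Type 2 innate lymphoid cells (ILC2), which lack T cell receptors and Foxp3, share much of that program, including Gata3 and Klrg1.

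Among the members, Foxp3 lies on chromosome X (7573644 to 7595245, plus strand), Ikzf2 on chromosome 1 (69531214 to 69687245, minus strand) and Gata3 on chromosome 2 (9857078 to 9890034, minus strand) of GRCm38. Pparg lies on chromosome 6 from 115360951 to 115490399 on the plus strand, and Klrg1 on the same chromosome from 122270596 to 122282882 on the minus strand. Batf lies on chromosome 12 (85686669 to 85709087, plus strand), Rora on chromosome 9 (68653786 to 69388246, plus strand) and Prdm1 on chromosome 10 (44437177 to 44528501, minus strand). The annotated span of Foxp3 overlaps the noncoding gene Flicr on the same strand, and UMIs of overlapping genes cannot always be told apart. Since several members encode DNA-binding proteins, the 250 bases upstream of a RefSeq start site (GRCm38.p6) were searched on both strands for letters that such families bind, and 3 windows that hold a match are shown, 5′ to 3′ on the gene's strand with the matches in capitals. The Foxp3 window (chrX:7580233-7580482, plus strand) holds AGGTCA, letters bound by nuclear receptors, on each strand and 1 GATA site (spelled AGATAA, with the variants TGATAA and also AGATAG as well as TGATAG). The Rora window (chr9:68653536-68653785, plus strand) holds 1 GATA site, and the Prdm1 window (chr10:44458749-44458998, minus strand) holds 1 AP-1 site (TGANTCA), the kind of site bound by BATF with its partners.
Foxp3: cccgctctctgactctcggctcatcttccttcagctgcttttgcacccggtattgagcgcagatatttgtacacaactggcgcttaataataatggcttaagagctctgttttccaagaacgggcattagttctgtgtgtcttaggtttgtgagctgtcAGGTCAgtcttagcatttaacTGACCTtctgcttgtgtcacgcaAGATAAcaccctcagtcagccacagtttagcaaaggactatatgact
Rora: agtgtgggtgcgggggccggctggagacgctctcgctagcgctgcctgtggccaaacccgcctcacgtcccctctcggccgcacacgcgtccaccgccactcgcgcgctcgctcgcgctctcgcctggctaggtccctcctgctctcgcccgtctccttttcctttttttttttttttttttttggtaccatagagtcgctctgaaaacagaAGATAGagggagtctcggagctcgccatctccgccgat
Prdm1: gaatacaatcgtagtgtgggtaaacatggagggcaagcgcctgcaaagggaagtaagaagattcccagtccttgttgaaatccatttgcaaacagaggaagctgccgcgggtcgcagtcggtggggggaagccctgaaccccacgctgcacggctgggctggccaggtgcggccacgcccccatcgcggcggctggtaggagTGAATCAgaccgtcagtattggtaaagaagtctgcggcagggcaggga
A GATA site was found in 26.5% of the 32851 promoter windows in the reference table, AGGTCA in 14.0% and the AP-1 site in 6.75%, so that such matches are common letters and say nothing of binding. The Foxp3 window lies within an exon of Flicr. Windows were available for 6 of the 8 members, not for Ikzf2 and Klrg1.

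Clusters were formed without the 8 members, and were named, with the ending "-like", from marker genes that do not include any of them. The Treg-like cluster held 317 NW and 100 ABX cells (median 3385 and 2629 UMIs), and Foxp3, Ikzf2 and Klrg1 were nevertheless among its 10 leading genes. Its median antibody counts were 43 and 34 for CD4 and 37 and 29.5 for CD25. Levels are given as CPM, the UMIs of a gene per 1000000 mRNA UMIs of the class. An unnamed cluster of 53 NW and 29 ABX cells, led by dendritic cell genes, had Foxp3 among its leading genes and a median of 37 CD4 antibody counts, and is in none of the classes. Summed over 9 macrophage markers, the Treg-like cells held 2024 CPM in NW and 2303 CPM in ABX, against 18170 and 15670 CPM in macrophage-like cells, and the part of such other RNA in the results was not tested. All 5 defining mast cell markers together stood at 6.11 and 3.10 CPM in the Treg-like cells.

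Foxp3 and Ikzf2, which encodes Helios, a factor that stabilizes Treg identity, had their highest levels in Treg-like cells in both libraries. Foxp3 stood at 1048 CPM in NW (interval 993 to 1105) and 813 CPM in ABX (718 to 918) in these cells. The next class was resting CD4 T-like in NW, at 257 CPM, and activated CD4 T-like in ABX, at 121 CPM, and both were separated from the Treg-like level by their intervals. Among Treg-like cells, 87.1% in NW and 56.0% in ABX held a Foxp3 UMI, and in 62.2% and 44.1% when each cell was thinned to 1000 UMIs. B cell-like cells, which should lack the gene, had a Foxp3 UMI in 2.58% and 0.954% of cells at medians of 4085 and 3976 UMIs, and macrophage-like cells in 1.84% and 0.618% at medians of 5640 and 4067 UMIs. The shares of 0.771% and 0.0802% in ILC2-like cells are below those and are read as background.

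**Figure D1:**
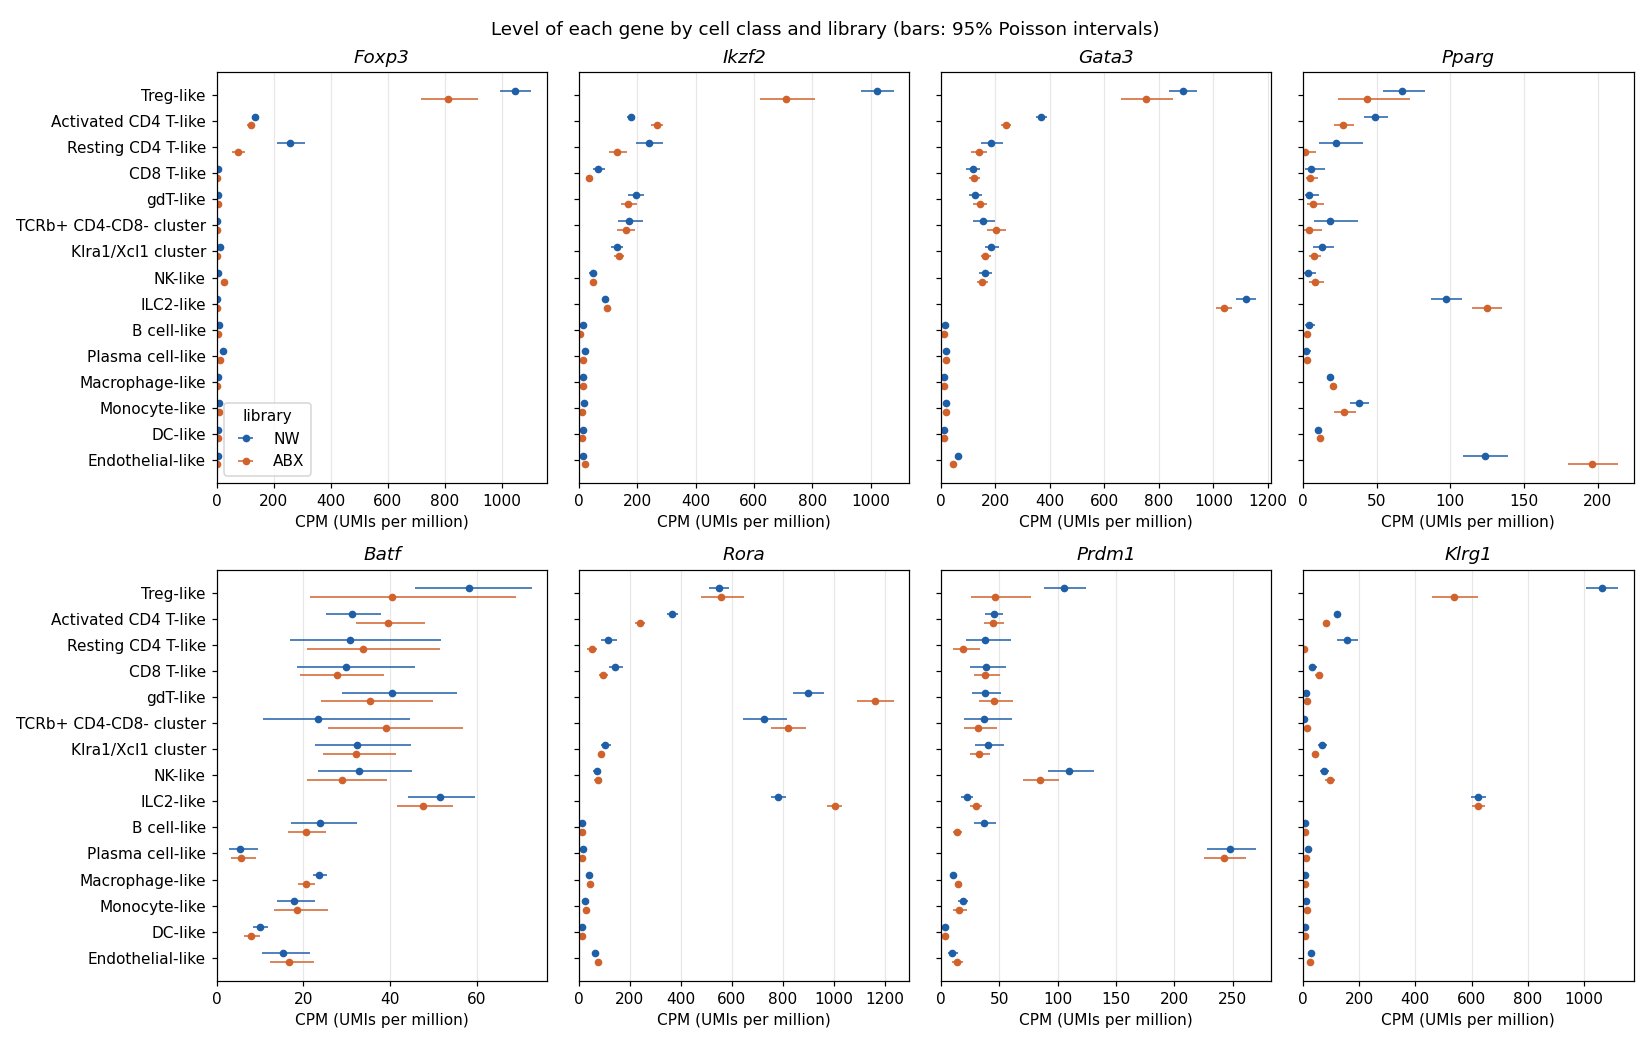
Level of each of the 8 genes (x axis, CPM on a linear scale, a separate range per gene) in 15 cell classes (y axis), with NW in blue and ABX in orange and bars for 95% Poisson intervals of counting error; neutrophil-like cells are left out for their few UMIs. Foxp3 and Ikzf2 are highest in Treg-like cells, Gata3 in ILC2-like, Rora in gdT-like, Prdm1 in plasma cell-like and Pparg in endothelial-like cells.

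Most Foxp3 UMIs of the NW library, 56.7%, came from the Treg-like cells, which held 1.74% of all its UMIs. In ABX the Treg-like cells held 29.7% of the Foxp3 UMIs and the activated CD4 T-like cells 34.8%. A larger part of the remaining Foxp3 mRNA thus lay outside the cluster, which was also smaller, with 0.530% of all ABX UMIs. Ikzf2 was broader than Foxp3. It stood at 1022 CPM in NW (968 to 1079) and 711 CPM in ABX (622 to 809) in Treg-like cells, and also at 194 and 170 CPM in gdT-like cells, which held 3 Foxp3 UMIs in each library. Behind the Treg-like cells, the NW levels of Ikzf2 in resting CD4 T-like (240 CPM), gdT-like (194 CPM) and activated CD4 T-like cells (178 CPM) did not differ beyond the intervals of neighbours in this order.

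Gata3 and Klrg1 were shared by Treg-like and ILC2-like cells. Gata3, the master regulator of type 2 lymphocytes, stood at 1120 CPM in NW (1085 to 1156) and 1040 CPM in ABX (1010 to 1070) in ILC2-like cells. In Treg-like cells it stood at 889 CPM (838 to 941) and 751 CPM (659 to 852), below the ILC2-like level in both libraries. Klrg1, an inhibitory receptor of differentiated lymphocytes, was highest in Treg-like cells in NW, at 1064 CPM (1009 to 1121), against 625 CPM (598 to 652) in ILC2-like cells. In ABX, ILC2-like cells stood at 623 CPM (600.2 to 646) and Treg-like cells at 537 CPM (460 to 623), with overlapping intervals. In single cells, a UMI of Gata3 and one of Klrg1 were found together in 76.0% of NW and 48.0% of ABX Treg-like cells and in 74.9% and 67.4% of ILC2-like cells.

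Rora, which encodes the nuclear receptor RORα needed for ILC2 development, was led by gdT-like cells with 899 CPM in NW (840 to 961) and 1161 CPM in ABX (1092 to 1234). ILC2-like cells followed with 781 and 1004 CPM. A cluster of TCRβ-positive cells without CD4 or CD8 antibody, led by Il18r1 and left unnamed, held 727 and 818 CPM. Treg-like cells came next with 549 CPM in NW (509 to 590) and 559 CPM in ABX (480 to 647).

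Pparg was a low gene in T cells. Its highest level was in endothelial-like cells, at 123 CPM in NW (109 to 139) and 196 CPM in ABX (180 to 214), followed by ILC2-like cells at 96.8 CPM (86.7 to 108) and 125 CPM (114 to 135). Treg-like cells held 88 Pparg UMIs in NW, or 67.2 CPM (53.9 to 82.9), and 14 UMIs in ABX, or 43.5 CPM (23.8 to 72.9). The gene was detected in 62 of the 317 NW and 11 of the 100 ABX cells. Macrophage-like cells stood lower, at 18.4 and 20.1 CPM, yet as the largest class they gave 35.0% of all Pparg UMIs in NW and 23.7% in ABX. Among their clusters it stood at 17.3 and 17.4 CPM in the one led by Lyve1 and Fcna, 20.4 and 25.3 CPM in the one led by Vcam1 and Cd163, and 16.7 and 15.7 CPM in the one led by Ccl12 and Cx3cr1. Among dendritic cells, the cluster with Xcr1 held 12.3 and 12.5 CPM and that with Cd209a 6.32 and 7.37 CPM. Monocyte-like cells held 144 Pparg UMIs in NW and 57 in ABX. These were 7.71% and 2.99% of all Pparg UMIs, from a class with 5.07% and 3.36% of all UMIs. Macrophage-like cells held 47.2% and 37.1% of all UMIs. Adipocyte genes, 6 in all, summed to 14.5 and 18.6 CPM in Treg-like cells.

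Prdm1 encodes Blimp-1, which drives plasma cell differentiation and marks effector Treg cells. Plasma cell-like cells held 248 CPM in NW (228 to 270) and 243 CPM in ABX (226 to 261). NK-like cells with 110 CPM and Treg-like cells with 105 CPM did not differ beyond their intervals in NW. In ABX, Treg-like cells held 15 Prdm1 UMIs, or 46.6 CPM (26.1 to 76.8). Batf, an AP-1 family factor of fat Treg cells, was low in all classes. Treg-like cells stood at 58.1 CPM in NW (45.8 to 72.7) and 40.3 CPM in ABX (21.5 to 69.0), ILC2-like cells at 51.4 and 47.6 CPM, and macrophage-like cells at 23.7 and 20.6 CPM.

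Across the 16 populations of both libraries, 32 profiles in all, Pearson's r of log2(CPM + 1) was computed between each member and 12311 genes with at least 200 UMIs. These profiles share their library and depth, so the values only describe. The genes most like Foxp3 were Tnfrsf4 (r = 0.88), Cd4 (r = 0.86) and Izumo1r (r = 0.78). Ikzf2 was followed by Icos (r = 0.92), Axin2 (r = 0.92) and Il7r (r = 0.90), and Gata3 by Tnfrsf18 (r = 0.95), Acsbg1 (r = 0.92) and Skap1 (r = 0.91). For Pparg these were Acadl (r = 0.83), Igfbp7 (r = 0.82) and Glul (r = 0.80), and for Rora Cxcr6 (r = 0.94), Xlr4c (r = 0.94) and Xlr4a (r = 0.93). Klrg1 was followed by Kcna4 (r = 0.84), Ctla2a (r = 0.81) and Epb41l4a (r = 0.77), Batf by Mgea5 (r = 0.91), Tsc22d4 (r = 0.90) and Mindy2 (r = 0.89), and Prdm1 by Rint1 (r = 0.76), Zfp280b (r = 0.76) and Aldh18a1 (r = 0.76). Between members, the highest value was that of Ikzf2 and Gata3 (r = 0.87) and the lowest that of Pparg and Prdm1 (r = -0.22).

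Between the libraries, 7 of the 8 members were lower in ABX than in NW within Treg-like cells, and 3 of them (Klrg1, Prdm1 and Pparg) by at least 1.5-fold. Among all genes, 46.5% were lower by any amount. Over all 8189 genes with at least 20 UMIs in these cells, 13.8% were lower and 15.0% higher by that much, so that such folds were frequent at this depth. Klrg1 differed most firmly, with a log2 ratio of ABX to NW of -0.99 (-1.22 to -0.76). The log2 ratio was -1.18 (-2.06 to -0.41) for Prdm1 and -0.63 (-1.56 to 0.19) for Pparg, the latter on 88 and 14 UMIs. Smaller ratios were found for Foxp3 at -0.37 (-0.56 to -0.17), Ikzf2 at -0.52 (-0.73 to -0.32), Batf at -0.53 (-1.50 to 0.33) and Gata3 at -0.24 (-0.45 to -0.04), while Rora stood at 0.03 (-0.22 to 0.26). The median over the members was -0.53, beside 0.04 over all genes. A Foxp3 UMI was found in 87.1% of the NW and 56.0% of the ABX cells of this cluster. Fewer Treg cells in the cluster and less mRNA per Treg cell therefore cannot be told apart. The Foxp3 and Ikzf2 ratios depended on the clustering. With the members kept among the variable genes they were 0.01 and 0.18, and the Klrg1 ratio stayed between -1.17 and -0.70 over all 10 alternatives. The Prdm1 ratio ran from -1.22 to -0.22 and that of Pparg from -0.71 to -0.17, so that both lost the 1.5-fold difference under at least 1 alternative, with clustering by mRNA alone at -0.22 and -0.23.

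**Figure D2:**
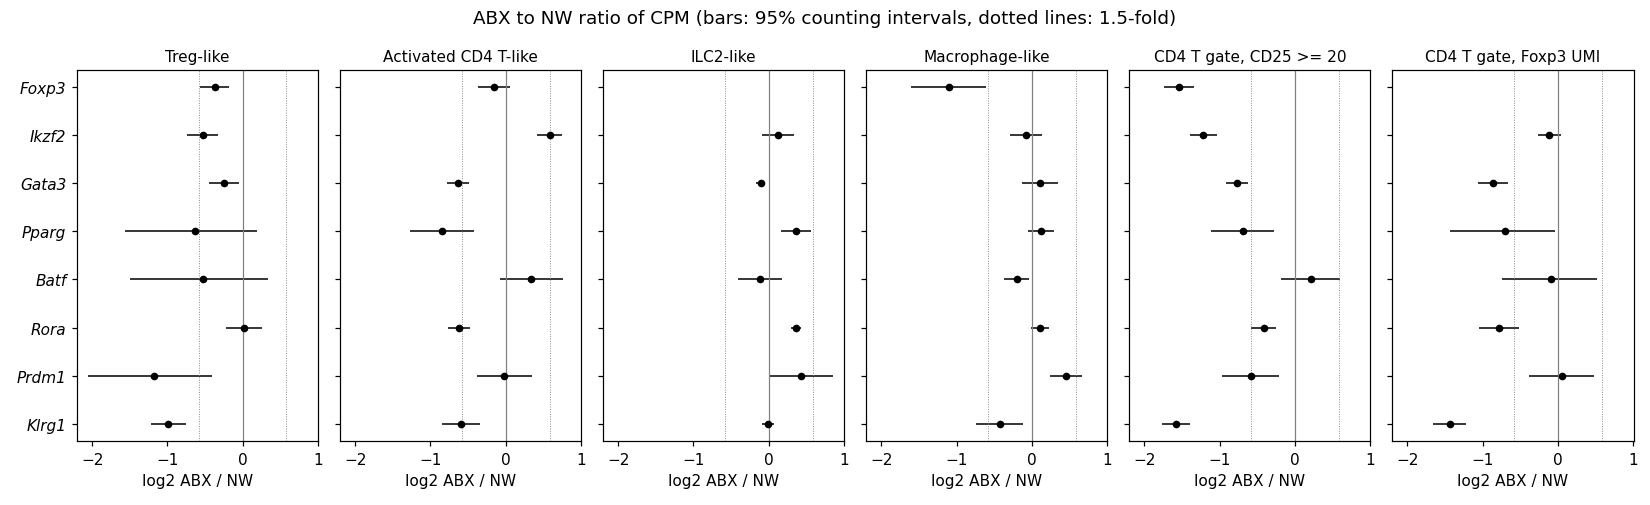
Log2 ratio of ABX to NW CPM (x axis) for each member (y axis) in 4 cell classes and 2 antibody gates, with bars for 95% counting intervals and dotted lines at 1.5-fold; members with under 20 UMIs, and Foxp3 where it set the gate, are left out. Klrg1 is lower in ABX in Treg-like cells and in both gates, and lies close to 0 in ILC2-like cells.

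ILC2-like cells, 778 in NW and 1247 in ABX, had no member past 1.5-fold in either direction among the 7 with at least 20 UMIs, beside 7.57% of genes lower and 5.13% higher. Klrg1 stood at 625 and 623 CPM (interval of the log2 ratio -0.09 to 0.08) and Gata3 at -0.11 (-0.17 to -0.04). Rora and Pparg were higher in ABX, both with a log2 ratio of 0.36 (0.29 to 0.43 and 0.17 to 0.56), and Prdm1 stood at 22.1 and 29.9 CPM (0.44, 0.02 to 0.86). Ikzf2 stood at 0.12 (-0.09 to 0.33) and Batf at -0.11 (-0.40 to 0.18). The mast cell markers summed to 607 CPM in the NW and 2.66 CPM in the ABX ILC2-like cells, and 20 NW and 11 ABX cells held a UMI of them. Without those cells the Rora ratio was 0.35 and the Pparg ratio 0.35. Gata2, a relative of Gata3, had all of its 52 NW UMIs in the cells that were left out and none in ABX.

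In activated CD4 T-like cells, Gata3, Pparg, Rora and Klrg1 were lower by at least 1.5-fold in ABX, and Ikzf2 was higher by that much, beside 6.02% and 7.75% of all genes. Pparg stood at 49.0 CPM in NW and 27.3 CPM in ABX, a log2 ratio of -0.84 (-1.28 to -0.43). Gata3 went from 369 to 238 CPM (-0.63, interval -0.77 to -0.49) and Rora from 367 to 239 CPM (-0.62, -0.76 to -0.47). Klrg1 went from 120 to 79.9 CPM (-0.59, -0.84 to -0.34). Ikzf2 went the other way, from 178 to 268 CPM (0.59, 0.42 to 0.75). Over 9 other settings the Pparg ratio stayed between -0.98 and -0.78. The other 4 lost the 1.5-fold difference under at least 1 setting, at 0.53 for Ikzf2, -0.57 for Gata3, -0.50 for Rora and -0.35 for Klrg1. In macrophage-like cells, Foxp3 alone was past 1.5-fold, with a log2 ratio of -1.10 (-1.61 to -0.61) on 152 and 45 UMIs, beside 2.71% of genes lower and 12.1% higher, and at these levels it is read as background. Pparg in macrophage-like cells differed little, with a log2 ratio of 0.13 (-0.05 to 0.30).

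To leave clusters aside, CD4 T cells were gated by antibody (at least 10 CD4 and 15 TCRβ counts, without endothelial-like and fibroblast-like clusters), which gave 1564 NW and 1253 ABX cells. Of those with at least 20 CD25 antibody counts, 770 in NW and 442 in ABX, 5 of 8 members were lower in ABX by at least 1.5-fold, beside 7.36% of genes lower and 6.92% higher. Foxp3 went from 267 to 92.3 CPM, a log2 ratio of -1.53 (-1.74 to -1.34), Klrg1 from 297 to 99.3 CPM (-1.58, -1.77 to -1.39) and Ikzf2 from 269 to 116 CPM (-1.22, -1.40 to -1.04). Batf stood at 27.8 and 32.2 CPM (0.21, -0.19 to 0.61). Such a gate mixes Treg with other cells, so fewer Treg cells and less mRNA per Treg cell cannot be told apart in it. The Treg-like, activated and resting CD4 T-like classes held 317, 724 and 74 cells in NW and 100, 593 and 147 in ABX. Together these are fewer than the gated cells, so at least a part of the gate came from other clusters. Macrophage-like cells had a median of 17 TCRβ counts in both libraries, above that limit, but a median of 1 CD4 count, below the limit of 10. Which cells of other clusters were in the gate was not tested.

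Gated cells with a Foxp3 UMI, 372 in NW and 122 in ABX, come closer to a level per Treg cell, although they miss Treg cells without a captured Foxp3 molecule. Gated or not, 276 Treg-like and 102 activated CD4 T-like cells held a Foxp3 UMI in NW, against 56 and 82 in ABX. A different mix of Foxp3-positive cells and less mRNA per Treg cell therefore cannot be told apart. In the gated Foxp3-positive cells, Klrg1 stood at 727 CPM in NW and 269 CPM in ABX (log2 ratio -1.43, -1.66 to -1.22), Gata3 at 618 and 341 CPM (-0.86, -1.06 to -0.66) and Rora at 337 and 196 CPM (-0.78, -1.05 to -0.52). Ikzf2 was close in both, at 720 and 666 CPM (-0.11, -0.26 to 0.04), as were Batf at 42.8 and 40.3 CPM (-0.09, -0.75 to 0.53) and Prdm1 at 83.8 and 87.4 CPM (0.06, -0.38 to 0.48). Pparg stood at 49.8 and 30.5 CPM (-0.71, -1.44 to -0.03). Thus 4 of the 7 members other than Foxp3 were lower by at least 1.5-fold, beside 13.5% of genes lower and 8.94% higher. In Treg-like cells the log2 ratios had been -1.18 for Prdm1, -0.52 for Ikzf2 and 0.03 for Rora, so these ratios depended on how the cells were chosen.

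Within each library, the same gated cells with and without a Foxp3 UMI show which members went with Foxp3. Ikzf2 and Klrg1 were separated by the widest margin. Ikzf2 stood at 720 CPM with and 42.9 CPM without Foxp3 in NW, a log2 ratio of 4.07 (3.89 to 4.25), and at 666 and 57.9 CPM in ABX (3.52, 3.32 to 3.73). Klrg1 stood at 727 and 44.9 CPM in NW (4.02, 3.84 to 4.19) and at 269 and 30.5 CPM in ABX (3.14, 2.84 to 3.44). Gata3 stood at 618 and 167 CPM in NW, a log2 ratio of 1.89, and at 341 and 119 CPM in ABX (1.52, 1.31 to 1.73). Prdm1 had log2 ratios of 1.56 (1.27 to 1.86) in NW and 1.55 (1.11 to 1.97) in ABX. Rora differed by 0.83 (0.70 to 0.96) and 0.58 (0.31 to 0.84). Pparg, at 0.60 (0.26 to 0.93) in NW and 0.59 (-0.14 to 1.25) in ABX, and Batf, at 1.04 (0.65 to 1.42) and 0.39 (-0.23 to 0.96), were not set apart in ABX beyond counting error. The cells without a Foxp3 UMI were the deeper ones, with medians of 4673 against 4117.5 UMIs in NW and 4352 against 3286.5 in ABX. Activated CD4 T-like cells had medians of 3420.5 and 3194 UMIs. Since the gate also held cells of other clusters, the part of cells other than CD4 T cells in these ratios was not tested.

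CD25, the IL-2 receptor chain that Treg cells carry, separated Ikzf2 in NW but not in ABX. Ikzf2 stood at 269 CPM in gated NW cells with at least 20 CD25 counts and at 109.7 CPM in those under 20 (log2 ratio 1.29, 1.14 to 1.45). In ABX these levels were 116 and 127 CPM (-0.13, -0.34 to 0.07), and whether the libraries differ in this was not tested. Many gated cells, 318 of 1564 in NW and 250 of 1253 in ABX, had CD25 counts close to the limit of 20. The CD25 median of Treg-like cells was 37 in NW and 29.5 in ABX, so this limit need not select alike cells in both libraries. Klrg1 was higher with CD25 in both, with log2 ratios of 1.82 (1.66 to 1.99) and 1.87 (1.54 to 2.20). Foxp3 itself stood at 267 and 99.4 CPM in NW (1.43, 1.27 to 1.59) and at 92.3 and 54.9 CPM in ABX (0.75, 0.48 to 1.02).

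Lists of related genes were described in the same Foxp3-positive cells. Of 16 measured genes of the fat Treg program, 10 were lower by at least 1.5-fold and 2 higher, with a median log2 ratio of -0.69. Among all genes in these cells, 13.5% were lower and 8.94% higher by that much. Il10, the anti-inflammatory cytokine, went from 80.6 to 16.7 CPM (-2.27, -3.25 to -1.43), and Gzmb, the protease granzyme B, had a log2 ratio of -1.84 (-2.37 to -1.34). Of the 10 measured genes of the lymphoid resting program, 6 were higher and none lower, among them Tcf7 (59.1 and 143 CPM), a factor of naive and memory T cells. The Treg lineage partners were mixed, with 6 of 16 lower and 3 higher, the latter being Izumo1r (87.5 and 176 CPM), Gpr83 (3.73 and 23.6 CPM) and Nt5e (21.9 and 55.5 CPM). Of the members' family relatives, 3 of 11 were lower and 2 higher. Of the 10 stress genes of tissue dissociation, 4 were lower (Junb at -0.83, Egr1 at -0.89, Atf3 at -0.70 and Dnajb1 at -0.71) and none higher, and their part in these results was not tested. In Treg-like cells, the list genes with the lowest ratios were Itgae at -3.59 (-8.93 to -1.05), Areg at -2.25, Il10 at -1.77 and Irf4 at -1.72 (49, 116, 152 and 67 NW UMIs against 1, 6, 11 and 5 in ABX). Those with the highest were Satb1 at 3.02, Tcf7 at 2.23, Bach2 at 2.21 and Il18r1 at 2.12. Of the Treg lineage partners in Treg-like cells, 7 of 14 measured were lower by at least 1.5-fold and none higher, beside 13.8% and 15.0% of all genes, and of the members' family relatives 1 of 11 was lower and 2 higher. The partner list shares Il2ra, Ctla4, Tnfrsf18, Tnfrsf4, Tnfrsf9 and Izumo1r with the markers that named this cluster, and the fat Treg program shares Ccr8. These lists are thus not independent of how the class was named. The fat Treg program had 7 of 16 lower and 1 higher in Treg-like cells, and the resting program 3 of 8 higher and none lower. There the stress genes summed to 11685 CPM in NW and 10528 CPM in ABX, with 1 of 10 lower and 1 higher. In ILC2-like cells the list genes with the lowest ratios beside Gata2 were Gzmb at -4.21, Itgae at -2.98 and Areg at -2.37, of which Gzmb stood at -1.16 (-2.53 to 0.13) without the cells that held a mast cell UMI, Itgae at -3.00 and Areg at -2.39, and those with the highest were Klrc1 at 2.11 (0.32 to 4.52, on 3 and 17 UMIs), Lef1 at 0.74, Tnfrsf9 at 0.52 and Ikzf3 at 0.45. Dendritic cell markers summed to 306 CPM in NW and 74.4 CPM in ABX in the ILC2-like cells, and their part in these ratios was not tested.

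Foxp3-positive CD4 T cells were then split by a UMI of Il1rl1 (chromosome 1, 40429570 to 40465415). An Il1rl1 UMI was found in 317 of 372 NW cells, 85.2% (81.2% to 88.7%), and in 72 of 122 ABX cells, 59.0% (49.7% to 67.8%). Klrg1 and Gata3 were higher with Il1rl1 in both libraries. In NW, Klrg1 stood at 805 CPM with and 192 CPM without it, a log2 ratio of 2.07 (1.67 to 2.50), and in ABX at 417 and 45.4 CPM (3.20, 2.39 to 4.13). Gata3 stood at 682 and 177 CPM in NW (1.95, 1.53 to 2.39) and at 486 and 122 CPM in ABX (1.99, 1.47 to 2.55). Rora and Prdm1 followed with smaller ratios, of 0.81 and 1.30 in NW and 0.73 and 1.08 in ABX. Pparg stood at 54.4 and 18.4 CPM in NW (1.56, 0.29 to 3.21), where the group without Il1rl1 held 5 UMIs, and at 27.6 and 34.9 CPM in ABX (-0.34, -1.68 to 1.03). Ikzf2 stood at 0.50 (0.25 to 0.76) in NW and 0.07 (-0.20 to 0.34) in ABX. Over 4 other settings, the ABX ratio ran from -0.29 to 2.22 for Ikzf2 and from -1.07 to 0.89 for Pparg. Both ABX ratios thus depended on how the cells were chosen or counted. Batf showed no difference beyond counting error in NW (-0.19, -1.04 to 0.78) or ABX (-0.10, -1.25 to 1.10). The NW cells with Il1rl1 were deeper, with a median of 4257 UMIs against 3323, and after thinning to 1000 UMIs a Klrg1 UMI was found in 55.0% against 13.9% of the NW and 41.7% against 6.27% of the ABX cells.

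**Figure D3:**
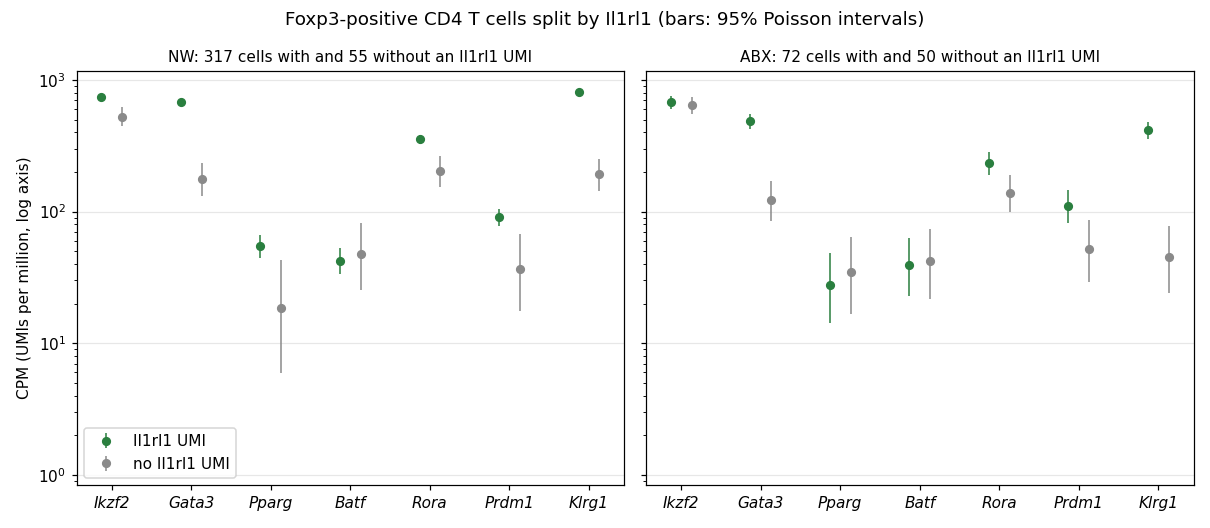
CPM on a log axis (y axis) of the 7 members other than Foxp3 (x axis) in Foxp3-positive CD4 T cells with (green) and without (grey) a UMI of Il1rl1, in NW (left) and ABX (right), with bars for 95% Poisson intervals. Gata3 and Klrg1 are higher with Il1rl1 in both libraries, and Batf is not separated in either.

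Within the cells that had both Foxp3 and Il1rl1, Klrg1 was still lower in ABX, at 417 against 805 CPM (log2 ratio -0.95, -1.18 to -0.73). Rora stood at 233 against 356 CPM (-0.61, -0.93 to -0.31) and Gata3 at 486 against 682 CPM (-0.49, -0.71 to -0.28). Pparg stood at 27.6 against 54.4 CPM (-0.98, -1.98 to -0.11) on 12 and 102 UMIs. Prdm1, at 110.5 against 90.6 CPM (0.29, -0.21 to 0.76), and Batf, at 39.1 against 42.1 CPM (-0.11, -0.95 to 0.66), were within counting error. Ikzf2 differed little, at 679 against 748 CPM (-0.14, -0.32 to 0.04). In Foxp3-positive cells without Il1rl1, Klrg1 stood at 45.4 CPM on 13 UMIs in ABX and 192 CPM on 52 UMIs in NW (-2.08, -3.08 to -1.18). A Treg-like cell held UMIs of 4.79 of the 8 members on average in NW and 3.35 in ABX, or 2.97 and 2.22 at 1000 UMIs per cell.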

How the data were processed

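The authors processed the reads with the BD Rhapsody whole transcriptome pipeline (version 1.8 per the file headers) on mm10 (GRCm38), and deposited raw UMI counts per cell for genes and 10 antibodies, without normalization. The submitters' notes also name R 3.6.0 and Seurat 3.0.1. Whether counting used strand is not given in the sources used here. Cells with at least 500 UMIs, at least 200 genes and at most 25% mitochondrial UMIs were kept, as in the methods. The NW library kept 75214427 and the ABX library 60770758 mRNA UMIs. Both libraries were merged without integration in Seurat 5.3.0 (R 4.3.3) and clustered (resolution 0.6) by a weighted neighbour graph that joins 30 principal components from 2000 variable genes, the 8 members left out, with 8 antibodies. Scrublet (scanpy 1.11.5) called 2.93% and 3.69% doublets, which were kept. A cluster was named where at least 3 markers were raised 1.5-fold in at least 10% of its cells. Limits on antibodies and on markers of other lineages were set after the clusters had been seen, and 6.13% of NW and 7.98% of ABX cells stayed unnamed. Classes with at least 50 cells per library were described.

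UMIs were summed per class and library. CPM has exact Poisson, shares Clopper-Pearson and ratios exact conditional 95% intervals (scipy 1.17.1). Only the ratio intervals were run on simulated data, drawn as Poisson counts, which is what these intervals assume. That run cannot show how they hold where UMIs gather in few cells. For Prdm1 in ABX Treg-like cells, 1 cell held 3 of the 15 UMIs. Genes outside the members were named by rule, as the 3 most alike per member and the 4 highest and 4 lowest list genes per class, and Il10, Gzmb and Tcf7 in Foxp3-positive cells beyond it after their values were seen. The members, lists and tests were chosen with earlier results of these data known.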

Additional observations from a re-analysis of the deposited data

Results flagged for a closer look

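4 of the 8 members moved in opposite directions between NW and ABX in 2 cell classes, each by at least 1.5-fold with an interval that leaves out 0. Among 9250 genes measured in at least as many classes as the least measured member, 10.6% met the same rule. Foxp3 and Pparg were measured in 9 classes, Klrg1 in 14 and the other members in 15, so the 2 shares are not matched for the number of classes. The differences between classes were not tested, and no cause was weighed. The log2 ratio of ABX to NW for Foxp3 was -1.80 (-2.32 to -1.30) in resting CD4 T-like cells and 2.88 (1.40 to 4.83) in NK-like cells, where 36 ABX UMIs lay in 5 of 402 cells and 12 of them in 1 cell. For Ikzf2 it was 0.59 (0.42 to 0.75) in activated CD4 T-like cells and -1.32 (-2.18 to -0.46) in B cell-like cells, the latter on 25 UMIs in each library. The former lay at the 1.5-fold limit and ran from 0.53 to 1.07 over 9 other settings. For Pparg it was -0.84 (-1.28 to -0.43) in activated CD4 T-like and 0.67 (0.46 to 0.89) in endothelial-like cells. For Klrg1 it was -6.60 (-11.93 to -4.08) in resting CD4 T-like cells, with 71 UMIs in 20 NW cells and 1 UMI in ABX, and 0.76 (0.06 to 1.51) in CD8 T-like cells.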

How the results depend on the processing

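Over the other settings tried, with 1 added after the data were seen that left out ILC2-like cells with a mast cell UMI, 590 of 692 recomputed values stayed within the counting interval of the reported value or within 1.5 times it, 102 moved beyond it, and none reversed after being past 1.5-fold. The median log2 ratio of the members ran from -0.56 to -0.22 in Treg-like cells. In activated CD4 T-like cells it moved to -0.14 when levels were averaged over cells. The median ratio between ABX Foxp3-positive cells with and without Il1rl1 moved from 0.73 to 2.22 when Treg-like cells replaced the antibody gate. With log2(CPM + 10), 12 of the 24 most alike genes were shared, so those names depend on the added constant. With mRNA alone, activated CD4 T-like cells could not be named, and Batf in Treg-like cells stood at 0.73. The causes were not tested. Low UMI counts limit Pparg, Batf and Prdm1 in ABX Treg-like cells, and with 1 library per condition antibiotics cannot be told apart from any other difference between the libraries. No paired analysis was possible because each condition has 1 library.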
